A study of Mus musculus with 18 samples.

Results

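Interleukin-1 (IL-1) is a cytokine with which myeloid cells signal tissue damage, and the 10 genes described here are its ligands, receptors and inhibitors together with the inflammasome that matures it: Il1a, Il1b, Il18, Il1rn, Il1r1, Il1r2, Il1rap, Nlrp3, Casp1 and Pycard. They were chosen by name from the pathway, and all 10 were found among the 53465 genes of the count table. The libraries came from female C57BL/6J mice, aged 8 to 10 weeks, with a contusion of the spinal cord at thoracic vertebra 11. At 48 h after injury each mouse received 1 µL of PBS, 100 ng of recombinant interleukin-13 (rIL-13) or 100 ng of recombinant interleukin-4 (rIL-4) into the lesion, and 24 h later microglia (CD45low, CD11b+, F4/80+) and macrophages (CD45high, CD11b+, F4/80+) were sorted from the same cord and sequenced as bulk RNA. PBS was given to mice 1, 2 and 3, rIL-13 to mice 5, 6 and 7, and rIL-4 to mice 8, 9 and 10, which gave 18 libraries in 6 groups of 3 mice. All animals carried the contusion and the intraspinal injection, so no group is uninjured, and the 2 cell types were told apart only by their level of CD45 at the sort.

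IL-1α and IL-1β bind the receptor IL1R1, which recruits the accessory chain IL1RAP and signals through MyD88 and the IRAK kinases to NF-κB. This signal is limited by the receptor antagonist, encoded by Il1rn, which occupies IL1R1 without recruiting the accessory chain, and by IL1R2, a decoy receptor that binds IL-1 without signalling. IL-1β and IL-18 are made as inactive precursors, and the inflammasome, in which the sensor NLRP3 is joined through the adaptor ASC (encoded by Pycard) to caspase-1, cuts them into their active forms, whereas IL-1α needs no such cut. After spinal cord injury microglia and infiltrating myeloid cells are among the producers of IL-1.

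The libraries held 35961305 to 45849829 estimated counts each, and no 2 of them were identical. Genes with at least 10 counts numbered 13338 to 13744 in rIL-4 microglia, fewer than the 15113 to 15463 of PBS microglia, and 12532 to 13474 in the macrophage libraries. The genes of the sorted proteins, Ptprc, Itgam and Adgre1, were abundant in all libraries, and Tmem119, a microglial marker, stood at 15265 to 25603 normalised counts in PBS microglia and at 4725 to 8268 in PBS macrophages, so that its RNA was present in the macrophage gate as well. Normalised counts are counts divided by each library's size factor over all 18 libraries. The microglia libraries also held RNA of fibroblast and pericyte markers (8 genes summing to 8092 to 293660 normalised counts, highest in rIL-13 mouse 6) and of endothelial markers (5 genes, 25511 to 86761), whereas the macrophage libraries held 8.56 to 314 of the former. In bulk RNA, fewer cells of a type and less RNA per cell cannot be told apart.

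Because NF-κB is known to induce several of these genes, Il1b and Nlrp3 among them, and because IL-4 and IL-13 act through STAT6, the promoters of the members were searched for both sets of letters. The windows run from 250 bases before to 50 bases after each transcription start in RefSeq (GRCm38.p6), and all 10 members had one, 14 windows in all since 3 genes have alternative starts. On either strand, TTC and GAA with any 4 bases between them, the core of a STAT6 site, were found in 4 of the 14 windows (3 members), and in 6.95% of all 32851 promoters, GGG and TCC with any 4 bases between them, the core of an NF-κB site, in 5 of 14 (3 members), and in 19.2% of all, and the TATA letters TATAAA in 4 of 14 (4 members), and in 13.6% of all. The capitals below mark the matched letters, 5′ to 3′ on the strand of the gene, with 10 bases on each side.
Il1rn, STAT6 letters, chr2:24345160-24345189, plus strand: tgtgctcttcTTCCCAGGAAcaccatgaag
Il18, STAT6 letters, chr9:50554644-50554673, plus strand: tttgagacagTTCCCCAGAAtgcaaatagg
Nlrp3, STAT6 letters, chr11:59542554-59542583, plus strand: ggcttcctccTTCCTTTGAAaataaaagca
Il1rn, NF-κB letters, chr2:24345310-24345339, plus strand: ggaaatatgaGGGTTTTTCCgcttctgaca
Il1rn, NF-κB letters, chr2:24336846-24336875, plus strand: tgggaaggagGGGCAGTTCCaccctgggaa
Il1r1, NF-κB letters on the opposite strand, chr1:40266344-40266373, plus strand: cagggattttGGAATGCCCCcaaggagatg
Il1rap, NF-κB letters on the opposite strand, chr16:26581577-26581606, plus strand: gcggcgggcgGGACTGCCCCgcgtgcggcc
The Il1rn matches at 24345160 and 24345310 lie beside a pair of alternative starts and were counted in both windows, and the one at 24345160 begins 121 bases before the nearer of them. None of these matches overlapped another.

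The 250 bases before the start of Il1b, whose RNA had the highest level of the 10 in PBS macrophages, held only the TATA letters, 31 bases before the start, and those of its neighbour Il1a, on the same strand of chromosome 2, held the same letters 32 bases before the start.
Il1b, chr2:129371140-129371389, minus strand: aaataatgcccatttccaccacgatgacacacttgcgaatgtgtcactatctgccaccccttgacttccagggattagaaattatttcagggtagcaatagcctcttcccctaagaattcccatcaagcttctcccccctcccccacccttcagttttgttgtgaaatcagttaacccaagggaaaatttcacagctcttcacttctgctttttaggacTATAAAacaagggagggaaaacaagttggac
Il1a, chr2:129309989-129310014, minus strand: tgaggaagacTATAAAaaggcagaga
The windows of Il1r2, Casp1 and Pycard held none of the 3 sets of letters. A match describes the sequence and is not evidence that a factor binds there.

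The cytokines were compared with PBS within each cell type, to see which genes of the pathway they raised or lowered (the plot of normalised counts by library). All 10 members passed the filter on low counts in every comparison. In macrophages, rIL-4 lowered 4 members (Il1a, Il18, Nlrp3 and Casp1) and raised 1 (Il1r1), in a comparison where 14% of all 13606 genes tested were called, that is, had an adjusted p under 0.05 in edgeR (6.77% higher and 7.2% lower). rIL-13 lowered Il1a and raised Il1r1 in macrophages, where 4.19% of all genes were called (2.53% higher and 1.66% lower). In microglia, 1 member rose with each cytokine, Il1rn with rIL-4 (2.22% of 15566 genes were called, 1.33% higher and 0.887% lower) and Il1r1 with rIL-13 (0.366%, 0.283% higher and 0.0835% lower), and no member was called lower by edgeR, whereas DESeq2 called Nlrp3 lower with rIL-4 and Il1b lower with rIL-13. Of the 15566 genes DESeq2 called 668 lower with rIL-4 and 135 with rIL-13. The median log2 fold change of the 10 members in macrophages was -0.854 with rIL-4 and -0.498 with rIL-13, beside 0.0191 and 0.00497 over all genes, and in microglia it was 0.133 and -0.231, beside -0.059 and -0.000817. In a single model of all 18 libraries, which shares 1 estimate of spread over both cell types, 2 of these 9 calls held, those of Il1r1 in macrophages. The others then had an adjusted p of 0.0568 (Casp1), 0.0612 (Il18), 0.0867 (Nlrp3) and 0.173 (Il1a) with rIL-4 and 0.102 (Il1a) with rIL-13 in macrophages, and of 0.0816 (Il1rn with rIL-4) and 0.106 (Il1r1 with rIL-13) in microglia. Both cytokines were compared with the same 3 PBS mice, so their values are not independent of each other.

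**Figure D1:**
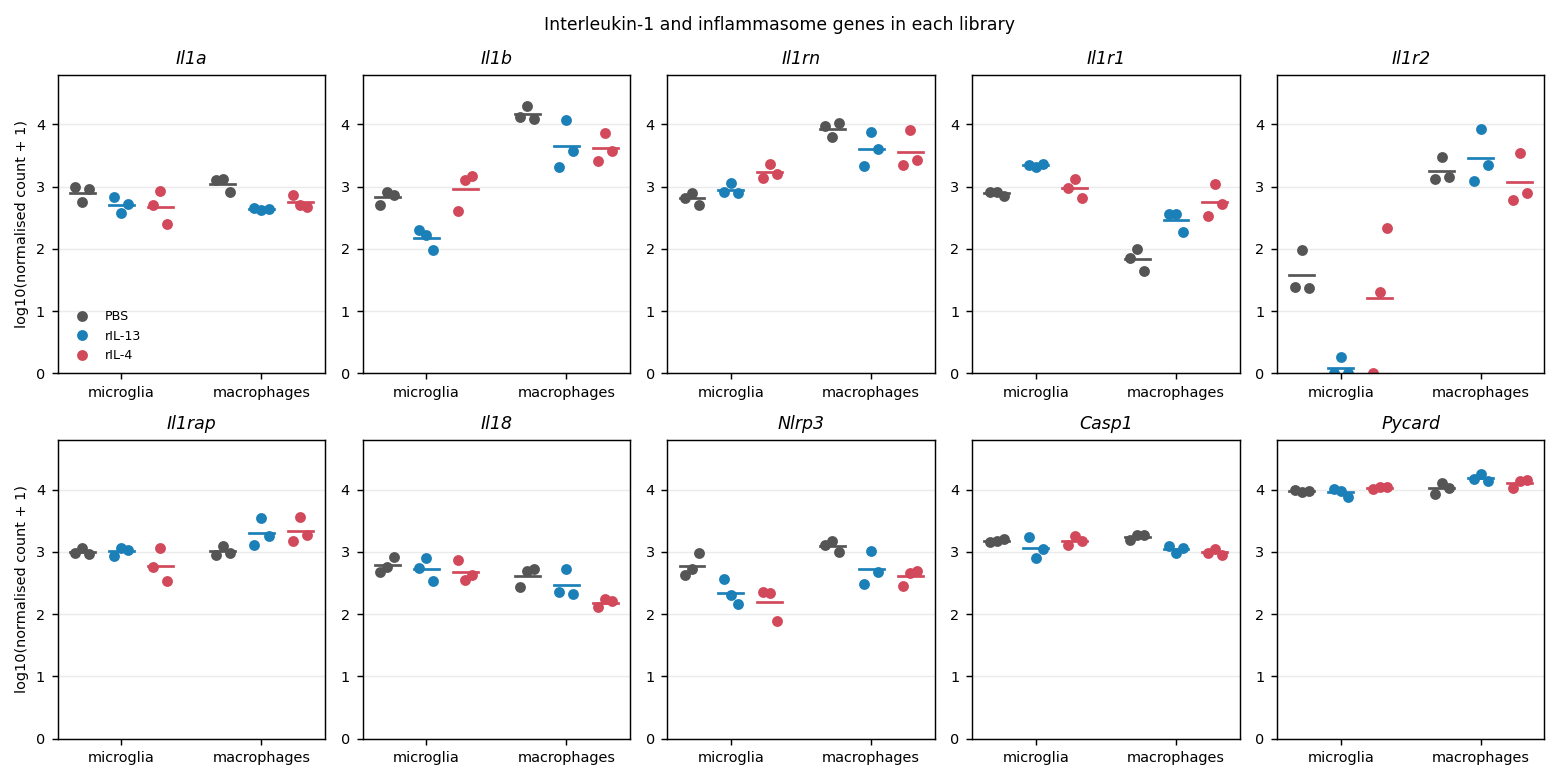
Each panel plots log10 of the normalised count plus 1 for 1 gene in each of the 18 libraries, with microglia on the left and macrophages on the right of a panel, points for single mice and a line for the mean of the 3 log values of a group. Il1b and Il1r2 lie higher in macrophages under each treatment, Il1rn does so with PBS and rIL-13, Il1r1 lies higher in microglia given PBS or rIL-13, and Il1r2 falls to 0 or 1 count in the 3 rIL-13 microglia libraries.

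Il1b (chr2:129364570-129371139, minus strand, GRCm38 as all positions here), which encodes the main secreted IL-1, was abundant in PBS macrophages, with 13058, 19547 and 12157 normalised counts in mice 1, 2 and 3. With rIL-4 the values were 2577, 7166 and 3748 in mice 8, 9 and 10, and with rIL-13 they were 2042, 11848 and 3703 in mice 5, 6 and 7. Every cytokine library lay below every PBS library, although rIL-13 mouse 6 stood close to PBS mouse 3 and well above the other two mice of its group. Such a separation of cytokine from PBS libraries was seen for 34.5% of all genes with rIL-4 and for 24.5% with rIL-13. Neither fold change passed the threshold: Il1b changed by a log2 fold change of -1.68 ± 0.58 (SE, n = 3 mice per group, adjusted p = 0.0833 in edgeR) with rIL-4 and of -1.33 ± 0.57 (adjusted p = 0.258) with rIL-13. The rIL-4 difference passed with no filter on low counts (adjusted p = 0.0102) and with only the 6 libraries compared (0.0156), and the rIL-13 difference passed without rIL-13 mouse 6 (-2.34, adjusted p = 0.0175 in edgeR).

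In microglia Il1b stood far lower than in macrophages. Its normalised counts were 498, 807 and 743 with PBS, 202, 164 and 95.8 with rIL-13 and 403, 1270.5 and 1489 with rIL-4. The 3 rIL-13 libraries lay below all others (16.1% of all genes had no overlap between rIL-13 and PBS), while those of rIL-4 spanned the PBS values, with mouse 8 below them and mice 9 and 10 above. The log2 fold change against PBS was -2.14 ± 0.50 (adjusted p = 0.197 in edgeR) with rIL-13 and 0.66 ± 0.48 (adjusted p = 0.591) with rIL-4. DESeq2 called the former (adjusted p = 0.00337), so the call on Il1b in rIL-13 microglia depended on the tool.

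Il1a (chr2:129299610-129309972, minus strand) encodes IL-1α, which is active without cleavage and is released by damaged cells. In macrophages its normalised counts were 1260.1, 1330.1 and 814 with PBS, 458, 415 and 439 with rIL-13 and 735, 498 and 474 with rIL-4. The 3 rIL-13 values lay close together and below every other library, and the rIL-4 values lay between them and PBS, with no overlap. It fell by 1.34 ± 0.23 on the log2 scale with rIL-13 (adjusted p = 0.00937 in edgeR), or 2.54-fold, and by 0.95 ± 0.22 with rIL-4 (adjusted p = 0.0195), or 1.93-fold. The first call held in all 6 fits that left out 1 mouse, and the second only without PBS mouse 3 or rIL-4 mouse 8 (adjusted p = 0.0112 to 0.0839 over the 6 fits). In microglia Il1a spread from 246 to 983 normalised counts, lowest in rIL-4 mouse 10 and highest in PBS mouse 1, and its log2 fold changes of -0.62 ± 0.46 with rIL-13 and -0.58 ± 0.46 with rIL-4 did not pass (adjusted p = 0.951 and 0.63 in edgeR).

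Il18 (chr9:50554827-50581840, plus strand), another substrate of caspase-1, which induces interferon-γ in lymphocytes, fell in macrophages with rIL-4. Its normalised counts were 274, 493 and 523 with PBS, 128, 173 and 159.8 with rIL-4 and 224, 537 and 212 with rIL-13. The rIL-4 libraries lay below all others, whereas rIL-13 mouse 6 held the highest value of the 9. The log2 fold change was -1.43 ± 0.38 with rIL-4 (adjusted p = 0.0325 in edgeR) and -0.38 ± 0.38 with rIL-13 (adjusted p = 0.669), and the difference between the cytokines did not pass (-1.05 ± 0.38, adjusted p = 0.336). The rIL-4 call held in 1 of 6 fits that left out a mouse, the one without PBS mouse 1 (adjusted p = 0.0275 to 0.112 over the 6). In microglia Il18 lay between 340 and 821 normalised counts in all 9 libraries, with adjusted p values of 0.852 (rIL-4) and 1 (rIL-13). The start of Il18 overlaps that of Bco2 on the opposite strand, and counts of the 2 genes cannot be told apart there because the libraries do not keep the strand.

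Il1rn (chr2:24336853-24351494, plus strand), the receptor antagonist, was the member raised by rIL-4 in microglia. Its normalised counts there were 667, 783 and 514 with PBS, 807, 1144 and 775 with rIL-13 and 1368, 2272 and 1586 with rIL-4. The rIL-4 libraries lay above all others, and rIL-13 mouse 5 and mouse 7 lay within or near the PBS values. It rose by 1.45 ± 0.27 on the log2 scale with rIL-4 (adjusted p = 0.0268 in edgeR), or 2.73-fold, and differed by 0.48 ± 0.26 with rIL-13 (adjusted p = 0.796). The rIL-4 call held in 1 of the 6 fits that left out a mouse, the one without rIL-4 mouse 8 (adjusted p = 0.0321 to 0.127 over the 6). The 8 markers of monocyte-derived macrophages summed to 4102 to 14381 normalised counts in PBS microglia, 185901 to 275459 with rIL-13 and 459952 to 821018 with rIL-4, and 2 of the 8 were called higher and none lower with rIL-4. Of these, Chil3 held 2006 to 10129 with PBS and 455080 to 811266 with rIL-4, and is a gene that IL-4 is known to induce in macrophages. Most of the sum with rIL-4 was Chil3. Ccr2 held 411 to 1142 with PBS and 914 to 2481 with rIL-4, and Ly6c2 held 62.3 to 515 and 234 to 532. F10 held 185 to 881 with PBS and 2485 to 5558 with rIL-4, and Itga4 held 44.4 to 402 and 232 to 392. Lower ranges with rIL-4 were those of Plac8 (71.1 to 343 with PBS, 58.8 to 259 with rIL-4) and Ms4a4c (246 to 491, 146 to 438). Vcan fell from 719 to 836 with PBS to 210 to 442 with rIL-4, with no overlap. None of the 8 was at 0, and their part in the value of Il1rn was not tested. In macrophages Il1rn held 9319, 6160.0 and 10455 normalised counts with PBS, 2110.3, 7537 and 4077 with rIL-13 and 2192, 8262 and 2701 with rIL-4. In each cytokine group 1 mouse (6 and 9) reached the PBS range and the other 2 lay below it, and the log2 fold changes of -0.89 ± 0.53 and -0.93 ± 0.53 did not pass (adjusted p = 0.436 and 0.292). Without rIL-4 mouse 9 the latter was -1.78 (adjusted p = 0.0335 in edgeR).

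The balance of antagonist to cytokine can be read within each library as the ratio of Il1rn to Il1b counts, each divided by the length of the gene's exons. In PBS microglia this ratio per length was 0.461, 0.334 and 0.238, with rIL-4 it was 1.17, 0.616 and 0.367, and with rIL-13 it was 1.38, 2.403 and 2.79. All 3 rIL-13 libraries lay above all others and above 1, while the rIL-4 libraries overlapped PBS, mouse 8 alone lying above 1. In macrophages the ratio lay between 0.109 and 0.397 in all 9 libraries, so that Il1b exceeded Il1rn in each, and no treatment group stood apart from both others. The value of such a ratio depends on the transcript length taken, whereas the order of libraries does not.

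**Figure D2:**
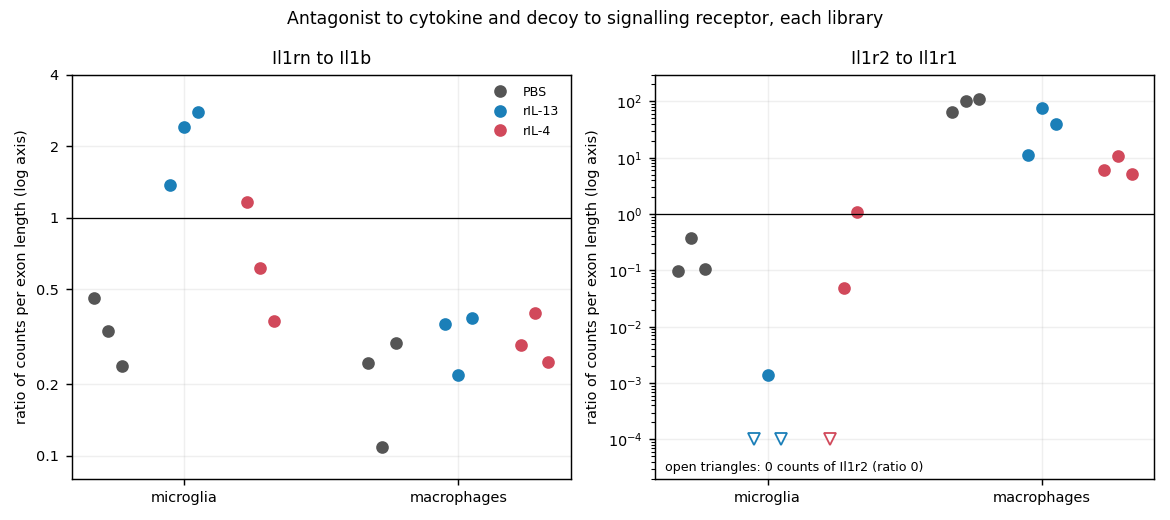
The left panel plots the ratio of Il1rn to Il1b and the right panel that of Il1r2 to Il1r1 in each library, from counts divided by exon length, on log axes, with 1 point per mouse and open triangles where Il1r2 had 0 counts. On the left the 3 rIL-13 microglia lie highest (1.38 to 2.79), and on the right rIL-4 macrophages (5.15 to 10.5) lie below PBS macrophages (63.6 to 109) and microglia lie lowest.

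Il1r1 (chr1:40225080-40317257, plus strand), the signalling receptor, rose in 3 of the 4 comparisons with PBS. In PBS macrophages it was low, with 70.0, 99.96 and 43.7 normalised counts (40 to 85 counts). With rIL-4 the values were 333, 1094 and 517 and with rIL-13 they were 366, 366 and 186. Each of the 6 cytokine libraries lay above each PBS library, with the widest spread among the rIL-4 mice. It rose by 3.24 ± 0.50 on the log2 scale with rIL-4 (adjusted p = 0.0022 in edgeR), or 9.43-fold, and by 2.13 ± 0.48 with rIL-13 (adjusted p = 0.0375), or 4.38-fold. The first call held in all 6 fits that left out a mouse, and the second only without rIL-13 mouse 7 (adjusted p = 0.0471 to 0.155).

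Microglia expressed Il1r1 at a higher level to begin with, 812, 831 and 709.9 normalised counts with PBS. The values were 2245, 2033 and 2338 with rIL-13 and 953, 1319 and 665 with rIL-4. Here it was rIL-13 that stood apart, with all 3 libraries above all others, whereas rIL-4 libraries overlapped PBS. It rose by 1.502 ± 0.251 on the log2 scale with rIL-13 (adjusted p = 0.0471 in edgeR), or 2.83-fold, a call that was lost in each of the 6 fits that left out a mouse (adjusted p = 0.0813 to 0.285), and it differed by 0.36 ± 0.25 with rIL-4 (adjusted p = 0.567). IL1R1 is also a receptor of endothelial cells and fibroblasts, so their markers are given beside it. In microglia the 5 endothelial markers summed to 25511 to 57784 normalised counts with PBS, 50666 to 85723 with rIL-13 and 63721 to 86761 with rIL-4, and none of the 5 was called with either cytokine. The 8 fibroblast and pericyte markers summed to 90730 to 133972 with PBS, 42956 to 293660 with rIL-13 and 8092 to 55039 with rIL-4, and 1 of the 8 was called, lower, with rIL-4. No marker of either list was at 0 in these libraries, and their part in the value of Il1r1 was not tested. In macrophages the endothelial sum was higher with the cytokines (1720 to 2063 with PBS, 5085 to 8387 with rIL-13 and 7938 to 16191 with rIL-4), of which Pecam1 gave 3752 to 6917 with rIL-13 and 5658 to 12281 with rIL-4, against 290.5 to 399 with PBS, and Flt1 948 to 1295 and 1718 to 3741, against 129 to 359. Kdr held 1043 to 1383 with PBS, 75.8 to 330.2 with rIL-13 and 127 to 336 with rIL-4. Cldn5 held 64.7 to 135, 59.2 to 87.1 and 27.6 to 41.5, and Cdh5 held 16.9 to 23.5, 12.4 to 47.8 and 11.8 to 30.4. Of the 5 genes, 2 were called higher and 2 lower with rIL-4, and 2 higher and 1 lower with rIL-13. The part of these genes in macrophage Il1r1 was not tested.

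Il1r2 (chr1:40074079-40125231, plus strand), the decoy receptor, was abundant in macrophages and close to absent in microglia. In macrophages the normalised counts were 1335, 3045 and 1431 with PBS, 1246, 8283 and 2193 with rIL-13 and 603, 3457 and 799 with rIL-4. The groups overlapped, and rIL-13 mouse 6 stood above every other library. Neither log2 fold change passed (-0.21 ± 0.76 with rIL-4 and 1.03 ± 0.77 with rIL-13, adjusted p = 0.893 and 0.552 in edgeR), and the second turned to -0.14 without mouse 6. In microglia the raw counts were 24, 108 and 25 with PBS, 0, 1 and 0 with rIL-13, and 0, 25 and 200 with rIL-4. The 3 rIL-13 libraries thus lay below all PBS libraries, and the rIL-4 libraries ran from none to the highest value of the 9. From the summed counts, 157 against 1, Il1r2 was 169-fold higher in PBS than in rIL-13 microglia, with an exact 95% interval of 29.97 to 6735 that covers counting error only, and the test across mice did not pass (adjusted p = 0.513 in edgeR). A gene on the same strand, Gm37347, lies within Il1r2, and reads shared by both were divided by the authors' counting.

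The ratio of decoy to signalling receptor, again per length of exon, separated groups of macrophages. Il1r2 stood at 63.6, 102 and 109 times Il1r1 in PBS macrophages, at 11.4, 75.4 and 39.4 times in rIL-13 macrophages and at 6.04, 10.5 and 5.15 times in rIL-4 macrophages. All rIL-4 libraries lay below all others, and among rIL-13 libraries mouse 6 alone reached the PBS range. In microglia the ratio was 0 to 0.377 in 8 of 9 libraries and 1.07 in rIL-4 mouse 10.

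Il1rap (chr16:26581704-26730117, plus strand) encodes the accessory chain that IL1R1 shares with the receptors of IL-33 and IL-36. In macrophages its normalised counts were 901, 1258 and 951 with PBS, 1290.1, 3502 and 1831 with rIL-13 and 1473, 3673 and 1850.5 with rIL-4. Every cytokine library lay above every PBS library, by little in rIL-13 mouse 5 and most in mice 6 and 9. The log2 fold changes of 1.22 ± 0.40 with rIL-4 and 1.11 ± 0.40 with rIL-13 missed the threshold (adjusted p = 0.0688 and 0.168 in edgeR), and the former passed with DESeq2 (adjusted p = 0.0159), with no filter (0.0106) and with only the 6 libraries compared (0.0404). The latter passed with no filter (0.0446). In microglia it lay between 335 and 1163 normalised counts with overlapping groups, and the adjusted p was 0.629 with rIL-4 and 1 with rIL-13.

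**Figure D3:**
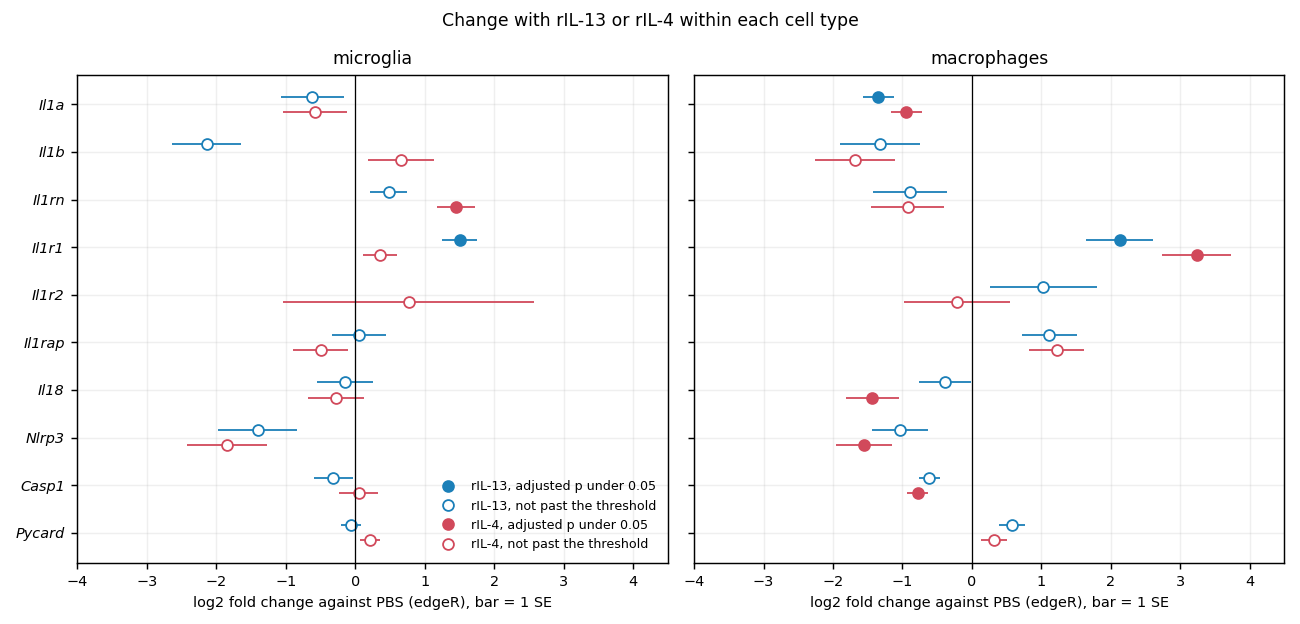
The plot gives the edgeR log2 fold change against PBS of each member with rIL-13 (blue) and rIL-4 (red) in microglia (left) and macrophages (right), with bars of 1 SE from 3 mice per group and filled points where the adjusted p is under 0.05. Il1r2 with rIL-13 in microglia, which had 1 count in the group, is left out, and in macrophages Il1r1, Il1rap and Pycard lie to the right of 0 while Il1a, Il1b, Il1rn, Il18, Nlrp3 and Casp1 lie to the left with both cytokines.

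Nlrp3 (chr11:59541568-59566956, plus strand), the sensor of the inflammasome, whose transcription is itself raised by NF-κB, had a log2 fold change below 0 with both cytokines in both cell types and fell in rIL-4 macrophages. In macrophages its normalised counts were 1283, 1506 and 1012 with PBS, 301, 1049 and 472 with rIL-13 and 281, 460.5 and 502 with rIL-4. The rIL-4 libraries all lay below PBS, and rIL-13 mouse 6 lay within the PBS range while mice 5 and 7 lay below it. It fell by 1.56 ± 0.40 on the log2 scale with rIL-4 (adjusted p = 0.0282 in edgeR), or 2.95-fold, and this call was lost in each of the 6 fits that left out a mouse (adjusted p = 0.0533 to 0.0905). With rIL-13 the log2 fold change was -1.03 ± 0.40 (adjusted p = 0.2), and -1.67 without mouse 6 (adjusted p = 0.0155). In microglia the values were 427, 534 and 954 with PBS, 370.1, 200.0 and 147 with rIL-13 and 229.6, 217 and 75.9 with rIL-4. All cytokine libraries lay below all PBS libraries (25.9% of all genes had no overlap between rIL-4 and PBS). The log2 fold changes of -1.84 ± 0.57 with rIL-4 and -1.41 ± 0.57 with rIL-13 did not pass in edgeR (adjusted p = 0.153 and 0.595), and the former passed with DESeq2 (adjusted p = 0.0284) and in the single model of all 18 libraries (0.0435).

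Casp1 (chr9:5298517-5307265, plus strand), the protease that cuts IL-1β and IL-18, fell in rIL-4 macrophages. Its normalised counts were 1554, 1859 and 1856 with PBS, 1245, 976 and 1157 with rIL-13 and 967, 1100.1 and 893 with rIL-4. All 6 cytokine libraries lay below all PBS libraries with little spread within groups. It fell by 0.78 ± 0.15 on the log2 scale with rIL-4 (adjusted p = 0.00782 in edgeR), or 1.72-fold, and the call held in all 6 fits that left out a mouse. With rIL-13 the log2 fold change of -0.61 ± 0.15 lay just outside the threshold (adjusted p = 0.0534), and it passed with DESeq2 (adjusted p = 0.00724) and with a minimum of 10 counts in every library (0.0438). In microglia Casp1 ranged from 795 to 1797 normalised counts, the groups overlapped and the adjusted p was 0.976 with rIL-4 and 1 with rIL-13.

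Pycard (chr7:127989708-127993867, minus strand), the adaptor ASC, was not called in any comparison with PBS. It held 7488 to 11122 normalised counts in the 9 microglia libraries and 8543 to 17900 in the 9 macrophage libraries. In macrophages the values were 8543, 12679 and 10718 with PBS, 15058, 17899.7 and 13682 with rIL-13 and 10471, 13523 and 14512 with rIL-4, so that rIL-13 libraries lay above PBS libraries and rIL-4 libraries overlapped them. The log2 fold changes of 0.57 ± 0.19 and 0.32 ± 0.19 did not pass (adjusted p = 0.137 and 0.308 in edgeR). In microglia the differences were 0.22 ± 0.14 with rIL-4 and -0.06 ± 0.14 with rIL-13 (adjusted p = 0.542 and 1), with 95% intervals of -0.07 to 0.50 and -0.34 to 0.22.

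Neutrophils also express Il1b and Il1r2. The macrophage gate required F4/80, whose absence defined granulocytes in the study, and neutrophil markers nevertheless differed between the macrophage libraries (the plot of 4 members beside the neutrophil marker sum). The 10 neutrophil markers summed to 40909, 64191 and 41490 normalised counts in PBS mice 1, 2 and 3, to 23072, 123938 and 21701 in rIL-13 mice 5, 6 and 7, and to 10195, 34658 and 17817 in rIL-4 mice 8, 9 and 10. Of the 10, 3 fell with rIL-4 and none was called with rIL-13, with median log2 fold changes of -1.21 and -0.25. None of the 10 was at 0, and Ly6g, the defining one, held 16.6 to 231 normalised counts. The highest sum was that of rIL-13 mouse 6, the library with the highest value of its group for Il1b, Il1rn, Il1r2, Il1rap, Nlrp3, Il18 and Pycard and the lowest for Il1a and Casp1, and the lowest sum was that of rIL-4 mouse 8. The part of neutrophil RNA in these members was not tested. Microglial markers moved as well: all 10 fell in macrophages with rIL-4 and 3 of 10 with rIL-13, their sums being 113446 to 171008 with PBS, 46542 to 93131 with rIL-13 and 18779 to 33995 with rIL-4, and in microglia 4 of 10 fell with rIL-4 and none with rIL-13. The part of a changed share of microglial RNA was not tested either.

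**Figure D4:**
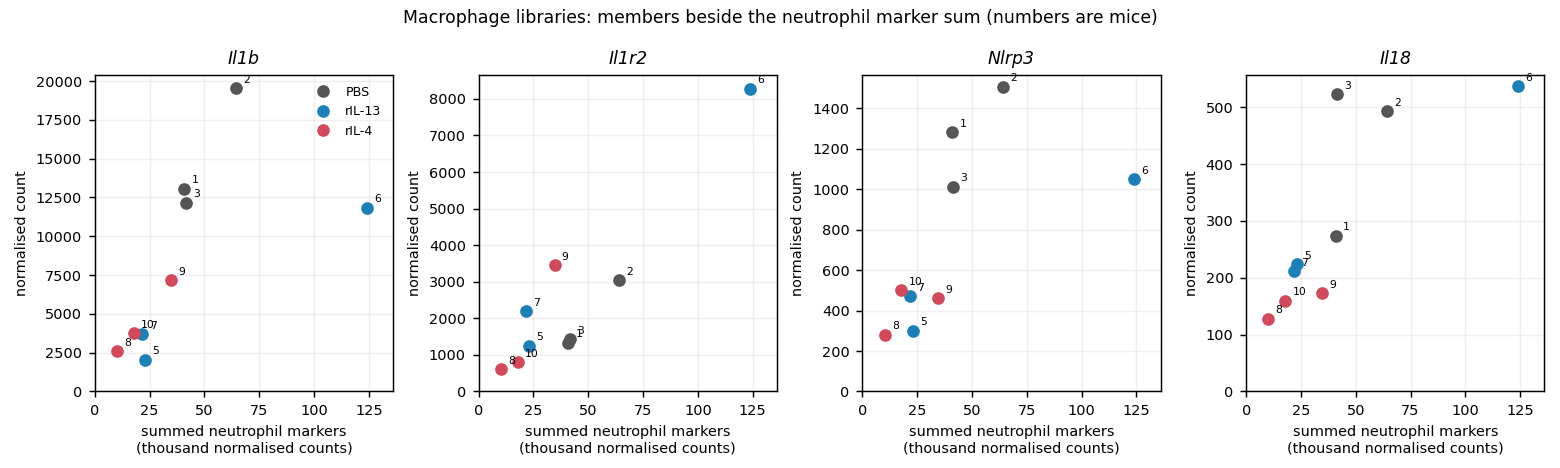
Each panel plots the normalised count of 1 member against the summed normalised counts of 10 neutrophil markers in the 9 macrophage libraries, with mouse numbers beside the points. rIL-13 mouse 6 has the largest marker sum (123938) and the most Il1r2 and Il18, whereas the other 2 rIL-13 mice lie within the rIL-4 range in marker sum and in Nlrp3.

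The 2 cytokines, which share receptor subunits, were also compared with each other on these genes. With 3 mice per group, a gene that is not called is not shown to respond alike to both. No member was called in microglia (0.0385% of all genes were called, 1773 had an unadjusted p under 0.05) or in macrophages (0.25%, 1513 genes). In microglia Il1r2 held 225 counts with rIL-4 against 1 with rIL-13, a ratio of 249.6 with an exact 95% counting interval of 44.3 to 9903 (adjusted p = 0.343 across mice in edgeR), of which 200 counts came from mouse 10. Among the other members the largest differences were Il1b, 2.80 ± 0.51 higher on the log2 scale with rIL-4 (adjusted p = 0.122 in edgeR), Il1r1, -1.14 ± 0.25 (adjusted p = 0.175), and Il1rn, 0.97 ± 0.26 (adjusted p = 0.288). For these 3 genes and for Pycard the libraries of rIL-4 and rIL-13 did not overlap, as was the case for 12.4% of all genes. DESeq2 called Il1b, Il1r1, Il1rn and Il1r2 (adjusted p = 9.49e-06 for Il1b, 0.00297 for Il1r1, 0.0485 for Il1rn and 0.0141 for Il1r2). It called 557 of all 15566 genes in this comparison, where edgeR called 6. In macrophages DESeq2 called none of the 10, beside 420 of 13606 genes. The log2 differences of the members there ran from -1.24 ± 0.77 (Il1r2) to 1.11 ± 0.45 (Il1r1). Of these, Il1a and Il18 had no overlap between libraries, beside 14.3% of all genes.

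The 2 cell types of the same cord were compared next, within each treatment. With PBS, 5 of the 10 members differed between microglia and macrophages, beside 40.9% of all 14715 genes tested. Il1b was 22.8-fold lower in microglia (log2 fold change -4.51 ± 0.26, adjusted p = 7.86e-06 in edgeR), Il1rn 13.8-fold lower (-3.79 ± 0.24, adjusted p = 1.16e-05) and Il1r2 42.8-fold lower (-5.42 ± 0.62, adjusted p = 0.000206). Il1r1 was 10.6-fold higher in microglia (3.40 ± 0.32, adjusted p = 7.81e-05), and these 4 calls held without each of the 3 mice. Nlrp3 was 2.06-fold lower in microglia (-1.04 ± 0.31, adjusted p = 0.0253), a call that held without mouse 3 alone and was lost in the single model of all 18 libraries (adjusted p = 0.153). Il1a, Il1rap, Il18, Casp1 and Pycard differed by 1.45-fold or less and overlapped between the cell types, beside 54% of all genes with no overlap. Markers of other cells differed in the same comparison: all 8 fibroblast and pericyte markers (median log2 fold change 8.66) and all 5 endothelial markers (4.83) were higher in microglia, and 8 of 10 neutrophil markers were lower (-3.66), summing to 6779 to 9716 normalised counts in PBS microglia. With rIL-13 and with rIL-4 the first 2 lists were again higher in full, and 3 and 5 neutrophil markers were lower. The part of these cells in the differences of Il1r1, Il1b and Il1r2 was not tested.

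With rIL-13, 5 members differed, beside 26.7% of all genes: Il1b (-5.27 ± 0.73, adjusted p = 0.00211 in edgeR), Il1rn (-2.36 ± 0.44, adjusted p = 0.00709), Il1r2 and Pycard (-0.80 ± 0.19, adjusted p = 0.0177) were lower in microglia and Il1r1 (2.82 ± 0.30, adjusted p = 0.000761) was higher. For Il1r2 the 1 count of rIL-13 microglia stood against 10311 in macrophages (adjusted p = 0.000531). The Pycard call was lost without each of the 3 mice (adjusted p = 0.0527 to 0.106) and that of Il1rn without mouse 7 (0.0903). With the mouse as a block, which pairs the cell types of a cord, Il1rap was called as well (-1.01, adjusted p = 0.0378). With rIL-4, 3 members differed, beside 23.4% of all genes: Il1b (-2.14 ± 0.55, adjusted p = 0.0262) and Il1rap (-1.81 ± 0.52, adjusted p = 0.0403) were lower in microglia and Il18 (1.68 ± 0.40, adjusted p = 0.0206) was higher. Each of these 3 calls held in 1 of 3 fits that left out a mouse: Il1b was lost without mice 9 and 10, and Il1rap and Il18 without mice 8 and 10. Blocking by mouse lost Il18 (1.61, adjusted p = 0.0663) and called Il1rn (-1.14, adjusted p = 0.0346). Il1r1, which differed with PBS and with rIL-13, was 0.55 ± 0.47 higher in microglia with rIL-4 (adjusted p = 0.476).

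Whether a cytokine acted differently on the 2 cell types was tested as the difference of the 2 log2 fold changes. For rIL-4 this difference passed for Il1r1 alone among the 10 (-2.91 ± 0.58, microglia minus macrophages, adjusted p = 0.0257 in edgeR), beside 0.992% of 16535 genes, with the values of macrophages and microglia given above. It held only without mouse 8 or mouse 9 among 6 fits that left out a mouse (adjusted p = 0.0318 to 0.142). With the mouse as a block 3 members passed, beside 188 of 16535 genes: Il1r1, Il1rn (2.57, adjusted p = 0.027; 2.34 ± 0.65 and adjusted p = 0.116 without the block) and Il1rap (-1.83, adjusted p = 0.0404; -1.75 ± 0.60 and 0.209 without it). For Il1b the difference was 2.32 ± 0.81 (adjusted p = 0.218). DESeq2 called Il1b (adjusted p = 0.0492) and Il1rn (0.00955) beside Il1r1, and 689 of 16535 genes in all. For rIL-13 no member passed (0.0242% of all genes did, 964 had an unadjusted p under 0.05, and DESeq2 called Il1r2 among 154 genes), and Il1r1, raised in both cell types, differed by -0.63 ± 0.57 (adjusted p = 1).

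Levels of the 10 genes can be set against each other only per length of transcript. On RPKM, counts scaled to exon length and library size, PBS macrophages held 185 ± 47.2 (SD, n = 3) of Il1b, above Pycard (66.3 ± 12.0), Il1rn (37.1 ± 9.94), Casp1 (27.8 ± 2.53) and Il1r2 (24.0 ± 11.5). Il1b and Pycard stood apart from their neighbours in this order, while Il1rn, Casp1 and Il1r2 overlapped in turn. Il1a (13.6 ± 3.29), Il18 (9.88 ± 3.06) and Nlrp3 (7.40 ± 1.37) also overlapped in turn, followed by Il1rap (2.16 ± 0.370) and Il1r1 (0.265 ± 0.101), each apart from the next. In PBS microglia the order began with Pycard (71.1 ± 1.01) and Casp1 (28.7 ± 1.67), each apart from the next. Il18 (17.2 ± 4.82), Il1a (11.7 ± 2.92) and Il1b (10.2 ± 2.64) followed, and each overlapped the next in this order, while Il18 and Il1b did not overlap. Nlrp3 (4.46 ± 1.94), Il1r1 (3.49 ± 0.331), Il1rn (3.35 ± 0.749) and Il1rap (2.49 ± 0.357) overlapped in turn, and Il1r2 was lowest (0.704 ± 0.633). With the longest transcript as length, Il1rn stood above Pycard in macrophages and above Nlrp3 and Il1r1 in microglia, and Il1r2 stood above Casp1 in macrophages and Il1b above Il1a and Il1rap above Nlrp3 and Il1r1 in microglia, so these ranks depend on the length taken.

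**Figure D5:**
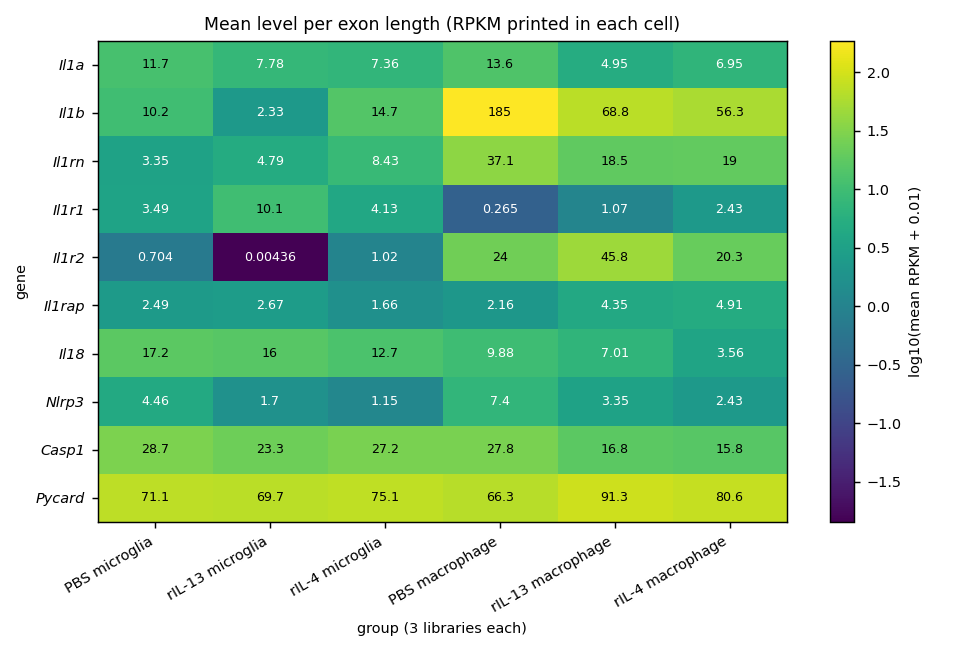
The grid gives the mean RPKM of each member (rows) in each group of 3 libraries (columns), printed in the cell and coloured by log10 of the mean plus 0.01. Il1b in PBS macrophages is the highest value (185), Il1r2 in rIL-13 microglia the lowest (0.00436), and Pycard stays between 66.3 and 91.3 in all 6 groups.

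Genes around the members were described with 4 lists. Among the other ligands and receptors of the IL-1 family, 7 of 14 in the table were tested, and Il1rl2, the receptor of IL-36, was the only one called in the comparisons with PBS: it rose in macrophages by 2.37 ± 0.24 with rIL-4 (adjusted p = 0.000247 in edgeR) and by 2.49 ± 0.24 with rIL-13 (adjusted p = 0.000524). Among 14 genes of IL-1 receptor signalling, 3 fell in macrophages with rIL-4 (7.2% of all genes did) and none was called in the other 3 comparisons with PBS: Peli1, a ubiquitin ligase (-0.64 ± 0.12, adjusted p = 0.00706), Irak2, a kinase (-0.82 ± 0.18, adjusted p = 0.0126), and Irak3, an inhibitory member of the same family (-0.55 ± 0.13, adjusted p = 0.0219). Their list's median was 0.173, beside 0.0191 over all genes. Myd88, Irak4 and Traf6 were not called in any of these 4 comparisons.

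Among the other genes of inflammasomes and pyroptosis, 23 of 24 were tested in macrophages. With rIL-4, 2 rose and 3 fell, beside 6.77% of all genes higher and 7.2% lower, among them Nlrp10 (2.49 ± 0.43, adjusted p = 0.00392 in edgeR), Ninj1, which ruptures the membrane of dying cells (-0.72 ± 0.15, adjusted p = 0.0114), Aim2, a DNA sensor (-0.75 ± 0.17, adjusted p = 0.0163), and Naip2, a sensor of bacterial proteins (-0.65 ± 0.17, adjusted p = 0.0267). With rIL-13, where 4.19% of all genes were called, Nlrp10 rose (1.80 ± 0.42, adjusted p = 0.0437) and Aim2 fell (-0.71 ± 0.17, adjusted p = 0.0468). In microglia 19 were tested and 1 was called, Pstpip1, a partner of pyrin, which rose with rIL-4 (1.70 ± 0.27, adjusted p = 0.0157). The medians of this list lay between -0.0935 and 0.0643 in the 4 comparisons with PBS.

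The last list held genes that IL-1 is known to induce through NF-κB. In macrophages 6 of 20 fell and none rose with rIL-4, where 7.2% of all genes fell, with a median of -0.962 beside 0.0191 over all genes, among them Icam1 (-0.9998 ± 0.145, adjusted p = 0.0017 in edgeR), Tnf (-2.20 ± 0.37, adjusted p = 0.00356), Ccl3 (-1.94 ± 0.43, adjusted p = 0.0147) and Tnfaip3 (-0.92 ± 0.21, adjusted p = 0.0158). With rIL-13, where 1.66% of all genes fell, 3 of 20 fell and none rose (median -0.711 beside 0.00497), namely Tnfaip3 (-1.18 ± 0.21, adjusted p = 0.0121), Tnf (-2.07 ± 0.37, adjusted p = 0.0122) and Nfkbiz (-2.18 ± 0.52, adjusted p = 0.045). In microglia 2 of 21 fell with rIL-4, where 0.887% of all genes fell, Tnf (-2.37 ± 0.40, adjusted p = 0.0192) and Ccl4 (-1.43 ± 0.27, adjusted p = 0.0298), and Bcl2a1b rose (1.22 ± 0.22, adjusted p = 0.0245). With rIL-13, Ccl4 (-2.44 ± 0.28, adjusted p = 0.00778), Tnf (-2.98 ± 0.41, adjusted p = 0.0156) and Ccl3 (-2.36 ± 0.38, adjusted p = 0.0408) fell, while the list's median was 0.0613. Other cytokines and bacterial products induce these genes too. In rIL-4 macrophages the microglial markers (10 of 10 lower) and neutrophil markers (3 of 10 lower) fell in the same comparison, and their part in this list was not tested.

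Between the cell types with PBS, 14 of 20 IL-1 induced genes were lower in microglia and 2 were higher (median -1.38 beside 0.0411 over all genes), and 9 of 23 inflammasome genes were lower and 1 was higher, in a comparison where 40.9% of all genes were called. Of all 14715 genes tested there, 2402 were lower in microglia and 3612 were higher. Of the receptor signalling genes, 6 of 14 were lower in microglia, led by Irak2 (-1.85 ± 0.15, adjusted p = 3.96e-05 in edgeR), and 1 was higher. Of the other IL-1 family genes 3 of 7 were higher in microglia, among them Sigirr, an inhibitory receptor (2.48 ± 0.35, adjusted p = 0.000614), and Il33, an alarmin known from oligodendrocytes and astrocytes (6.34 ± 0.96, adjusted p = 0.000914), and Il18bp, the binding protein that neutralises IL-18, was lower (-1.88 ± 0.30, adjusted p = 0.00124).

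To see which genes follow a member across the 9 libraries of a cell type, the 5 with the highest Pearson r on log2 CPM were listed for Il1b, Il1rn and Il1r2. In macrophages Il1b was followed most closely by Fos, Tnfsf9, Acod1, Mdm2 and Ccl4 (r = 0.979 to 0.983), and Il1r2 by Rdh12, Stx11, Gm5483, Ncf4 and Fpr1 (r = 0.963 to 0.975), of which Ncf4 and Fpr1 encode proteins of neutrophils and other phagocytes. In microglia Il1rn was followed by Eif4ebp1, Eif2s2, Gpatch4, Mdh2 and AA467197 (r = 0.963 to 0.988), and Il1b by Hspa1a, Amot, Ets2, Tnip2 and BC005624 (r = 0.889 to 0.913). Macrophage Il1rn was followed by Fbxo46, Trpv2, Sfswap, Ppm1g and Crlf3 (r = 0.927 to 0.968), none of which is among the genes that followed Il1b. The 9 points share 3 treatments, and the genes were picked from 9941 in macrophages and 11643 in microglia, so these are descriptions.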

How the data were processed

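RNA of sorted microglia and macrophages was amplified with SMART-seq2, which keeps neither strand nor molecular identifiers. The authors aligned the reads with STAR (2.5.3a) to GRCm38 and deposited expected counts per gene made with RSEM (1.3.0). Here these were rounded to whole counts and compared with the quasi-likelihood test of edgeR 4.0.16 in R 4.3.3, after TMM scaling and the filterByExpr filter, with Benjamini-Hochberg adjustment over all genes tested and a threshold of 0.05. The SE is the log2 fold change divided by the square root of its F value. Comparisons within a cell type used its 9 libraries, those between cell types the 6 libraries of a treatment, and differences in response all 18. The levels shown were divided by DESeq2 1.42.0 size factors over all 18 libraries, and RPKM used the union of exons in GENCODE. Promoter sequences came from RefSeq (GRCm38.p6).

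Alternatives were DESeq2's Wald test and size factors, no filter and a minimum of 10 counts in every library, a single model of all 18 libraries, the 6 libraries compared alone, the mouse as a block, each mouse left out in turn, and the longest transcript as length. Microglia and macrophages with the same mouse number came from the same animal by the labels and methods, and their deviations from the group means correlated with r = 0.0637 to 0.261 over 10191 genes in the 9 mice. Each mouse gave 1 library per cell type. The depth of 35961305 to 45849829 counts limits precision only for genes with few counts, such as microglial Il1r2, and counting intervals cover counting error only. Genes of each pathway list were named where called, at most 4 per list and comparison by lowest p, and genes most like a member were the 5 with the highest r among those with a mean of at least 100 counts. The members and lists were chosen with earlier results of these data known.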

Additional observations from a re-analysis of the deposited data

Results flagged for a closer look

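The response of Il1r1 to rIL-4 differed between the cell types by a test of the difference itself, with a log2 value of -2.91 (microglia minus macrophages, adjusted p = 0.0257 in edgeR). The gene was higher with rIL-4 in 3 of 3 macrophage libraries than in any PBS macrophage library, whereas the microglia libraries of rIL-4 and PBS overlapped. In macrophages 34.5% of all genes had no overlap between rIL-4 and PBS, and the PBS libraries held only 40 to 85 counts of Il1r1. With 1 mouse left out the call held only without mouse 8 or mouse 9 (adjusted p of up to 0.142 in edgeR).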

How the results depend on the processing

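Of the log2 fold changes of single members, 1075 values under an alternative kept their direction and their side of the threshold, 56 were no longer past it, 37 came to pass it, and 34 changed sign, all of the latter with 1 mouse left out. The number of members called moved as follows. With DESeq2's Wald test it was 2 for each cytokine against PBS in microglia, 4 between the cytokines in microglia, 5 between the cell types with rIL-4, and 3 and 1 for the difference in response to rIL-4 and to rIL-13. Over all genes DESeq2 called 1215 with rIL-4 and 322 with rIL-13 against PBS in microglia, where edgeR called 345 and 57. DESeq2 called 557 between the cytokines in microglia (6 in edgeR) and 3971 between the cell types with rIL-4 (3174 in edgeR). For the difference in response to rIL-4 and to rIL-13 DESeq2 called 689 and 154 genes (164 and 4 in edgeR). In a single model of all 18 libraries the number of members called was 0 for rIL-13 against PBS in microglia, 1 between the cytokines in microglia (Il1b), 1 for each cytokine against PBS in macrophages (Il1r1), and 5 between the cell types with rIL-4. Of 16535 genes this model called 172 and 138 in these microglia comparisons and 4569 between the cell types with rIL-4. In macrophages it called 1053 with rIL-4 and 257 with rIL-13. With the replicate block, which pairs the cell types of a mouse, the number of members called was 3 for the difference in response to rIL-4, 5, 3 and 6 between the cell types with PBS, rIL-4 and rIL-13, and 0 for the difference in response to rIL-13. Of 16535 genes, 188 were called with the block for the difference in response to rIL-4 and 3 for that to rIL-13. Between the cell types 5912, 2790 and 3538 genes were called with PBS, rIL-4 and rIL-13. The calls the block changed stand beside the results, and it changed no other. For rIL-4 against PBS in macrophages the number of members called was 7 with no filter and with only the 6 libraries compared (Il1b and Il1rap added) and 6 with DESeq2 (Il1rap), and for rIL-13 it was 3 with DESeq2 and with a minimum of 10 counts (Casp1) and with no filter (Il1rap). Over all genes rIL-4 gave 2034 calls of 23333 with no filter, 1927 of 13204 with the 6 libraries and 2660 of 13606 with DESeq2. For rIL-13 there were 1163 of 13606 with DESeq2, 554 of 11337 with the minimum of 10 counts and 760 of 23333 with no filter. Between the cell types the single model called 4 with PBS (Nlrp3 lost) and 6 with rIL-13 (Nlrp3 added), and DESeq2 called 6 with rIL-13 (Il1rap added), while a minimum of 10 counts in every library left Il1r2 untested and gave 4 with rIL-13. Over all genes the single model called 4240 with PBS and 4868 with rIL-13, of 16535. With rIL-13 DESeq2 called 4598 of 13906 and the minimum of 10 counts gave 2599 of 10996. For rIL-4 against PBS in microglia the single model called Nlrp3 in place of Il1rn, and 949 of 16535 genes in all. Of the counts over the 4 pathway lists 156 stayed within 1.5 times and 20 moved. Among those printed, DESeq2 called 5 IL-1 induced genes with each cytokine in microglia and 6 with rIL-13 in macrophages (also 6 with no filter), 2 signalling genes with rIL-4 in microglia and 2 with rIL-13 in macrophages, and 1 other IL-1 family gene with rIL-13 in microglia. With no filter 1 inflammasome and 1 signalling gene were called with rIL-13 in macrophages, and a minimum of 10 counts gave 1 signalling gene there and 5 inflammasome genes between the cell types with PBS. In that last comparison 4237 of 11535 genes were called. The cause of these moves was not tested.

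With 1 mouse left out, the number called ran from 0 to 1 for rIL-4 against PBS and was 0 throughout for rIL-13 against PBS in microglia, from 0 to 1 between the cytokines in microglia, from 2 to 4 for rIL-4 and from 1 to 3 for rIL-13 against PBS in macrophages, from 1 to 2 between the cell types with rIL-4, from 3 to 5 with rIL-13, and from 0 to 2 for the difference in response to rIL-4. Log2 fold changes that changed sign, none of which was called, ran as follows. In microglia they were -0.0775 to 0.149 (Casp1) and -2.23 to 1.77 (Il1r2) for rIL-4 against PBS, and -0.46 to 0.11 (Il18), -0.0166 to 0.152 (Il1rap) and -0.173 to 0.0584 (Pycard) for rIL-13 against PBS. Between the cytokines in microglia they were -0.686 to 0.0494 (Nlrp3), -0.47 to 0.38 (Il1a) and -0.51 to 0.19 (Il18). In macrophages Il1r2 ran from -1.43 to 0.29 for rIL-4 and from -0.14 to 1.53 for rIL-13 against PBS. Between the cytokines in macrophages they were -0.39 to 0.59 (Il1rap), -0.86 to 0.66 (Il1b), -0.88 to 0.52 (Il1rn) and -0.85 to 0.11 (Nlrp3). Between the cell types they were -0.69 to 0.17 (Il1a with rIL-4) and -0.22 to 0.19 (Casp1 with rIL-13). For the difference in response they were -0.320 to 0.0488 (Pycard), -0.24 to 0.69 (Il1a), -0.69 to 0.24 (Nlrp3) and -2.29 to 2.62 (Il1r2) with rIL-4, and -1.17 to 0.41 (Nlrp3) and -1.48 to 0.18 (Il1b) with rIL-13.

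With 3 mice per group, many calls on single members are lost when 1 mouse is left out, as given beside each. The gates share marker RNA of other cells, strand was not kept, and RNA levels say nothing of cleaved or secreted protein.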
